A study of Homo sapiens with 18 samples.

Results

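The PAGE and GAGE genes described here are PAGE1, PAGE2, PAGE2B, PAGE3, PAGE4, PAGE5 and GAGE1, chosen by name from an expression table of 23571 named genes. These 7 genes of 1 related family on the X chromosome were followed through all 18 RNA-sequencing libraries of the established human cell line SW48, which was derived from a colon adenocarcinoma. Of the 7 genes, 6 passed the filter on low values (at least 1 FPKM in at least 3 libraries) and were tested among 12809 genes, and PAGE3 did not. The libraries formed 6 groups of 3. They were cells given siRNA against CHD4 (siCHD4) together with siRNA against DNMT1 (siDNMT1), siCHD4 together with 50 nM decitabine, siCHD4 alone, control siRNA together with siDNMT1, control siRNA together with 50 nM decitabine, and control siRNA alone. In the siDNMT1 groups siDNMT1 was given on days 1, 3 and 5, the siCHD4 or control siRNA on days 7 and 8, and RNA was collected on day 11. In the decitabine groups the drug was given on days 1, 2 and 3, the siRNA on days 1 and 2, and RNA was collected on day 5. In the groups with siRNA alone the dosing days were 1, 3 and 6, and RNA was collected on day 8. Treatment and schedule therefore cannot be told apart in any comparison across these 3 backgrounds, whereas siCHD4 and control siRNA share a schedule within each. No label states that the 3 libraries in a group are separate cultures, and the p-values then reflect just the spread among these libraries, possibly technical.

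GAGE and PAGE genes encode small, acidic, largely unstructured proteins and belong to the cancer-testis antigens: they are transcribed in germ cells, for some members also in reproductive tissues such as prostate or placenta, and again in a share of tumours. In most other cells their promoters are kept silent, with DNA methylation at CpG sites as a well-known part of that silencing. DNMT1 copies this methylation onto new DNA strands, decitabine is a cytidine analogue that traps DNA methyltransferases, and CHD4 drives the nucleosome remodelling and deacetylase (NuRD) complex as its ATPase.

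The promoters are shown because the treatments act on DNA methylation and on chromatin at such sites. Each is the RefSeq window from 250 bases before to 50 bases after the transcription start, taken from a table of build GRCh38.p14 and placed on GRCh37, the build of the files, by exact match on the X chromosome. Capitals mark CpG dinucleotides. The windows lie at chrX:49460538-49460837 on the minus strand for PAGE1, chrX:49593613-49593912 on the plus strand for PAGE4, chrX:55101213-55101512 on the plus strand for PAGE2B, chrX:55246529-55246828 on the plus strand for PAGE5 and chrX:49363366-49363665 on the plus strand for GAGE1.
PAGE1: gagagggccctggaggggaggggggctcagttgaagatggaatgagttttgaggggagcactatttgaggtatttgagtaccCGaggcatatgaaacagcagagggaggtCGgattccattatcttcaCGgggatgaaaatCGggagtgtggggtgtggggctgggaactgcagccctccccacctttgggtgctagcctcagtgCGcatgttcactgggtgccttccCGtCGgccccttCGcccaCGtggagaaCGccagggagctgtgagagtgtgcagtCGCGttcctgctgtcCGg
GAGE1: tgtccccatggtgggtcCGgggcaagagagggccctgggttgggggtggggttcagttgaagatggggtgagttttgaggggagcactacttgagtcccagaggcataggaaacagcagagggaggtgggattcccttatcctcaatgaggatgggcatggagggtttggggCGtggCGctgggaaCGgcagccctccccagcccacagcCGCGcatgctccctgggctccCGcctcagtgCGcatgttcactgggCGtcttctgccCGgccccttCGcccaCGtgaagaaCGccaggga
PAGE2B: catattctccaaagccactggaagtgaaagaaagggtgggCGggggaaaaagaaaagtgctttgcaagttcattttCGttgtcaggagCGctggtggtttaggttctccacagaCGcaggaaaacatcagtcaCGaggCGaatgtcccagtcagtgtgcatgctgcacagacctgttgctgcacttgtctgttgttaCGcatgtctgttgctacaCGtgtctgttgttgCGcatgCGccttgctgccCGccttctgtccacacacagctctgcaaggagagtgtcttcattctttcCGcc
PAGE5: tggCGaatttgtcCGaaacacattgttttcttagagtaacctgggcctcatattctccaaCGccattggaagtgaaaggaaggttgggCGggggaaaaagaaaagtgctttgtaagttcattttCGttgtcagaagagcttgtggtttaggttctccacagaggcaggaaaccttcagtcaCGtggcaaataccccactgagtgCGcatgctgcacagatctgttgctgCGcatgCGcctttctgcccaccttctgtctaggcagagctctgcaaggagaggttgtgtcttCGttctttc
PAGE4: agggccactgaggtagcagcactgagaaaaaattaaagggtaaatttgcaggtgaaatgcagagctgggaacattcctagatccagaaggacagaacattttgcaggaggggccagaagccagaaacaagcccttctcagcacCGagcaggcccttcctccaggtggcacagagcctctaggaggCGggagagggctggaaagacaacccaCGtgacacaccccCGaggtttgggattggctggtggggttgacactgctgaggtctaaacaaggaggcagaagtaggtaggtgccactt
The PAGE1, GAGE1, PAGE2 and PAGE2B windows held 13, 13, 13 and 12 CpG sites, close to the median of 14 over 35116 RefSeq promoters of the same length. PAGE5 held 10. PAGE3 and PAGE4 were poorer, with 5 and 4 sites, and 29.6% of all promoters held as few as PAGE4 or fewer. For PAGE4 and GAGE1, which have more than 1 RefSeq start, the first listed window is shown. The windows fell into related sets: PAGE2 and PAGE2B were identical at 93.5% of aligned bases, PAGE2B and PAGE5 at 89.9%, PAGE2 and PAGE5 at 89.1%, and PAGE1 and GAGE1 at 87.7%, while the other pairs lay between 67.8% and 78.3%. The letters GGAAGT, an ETS-type core searched on both strands, occurred in the windows of PAGE2, PAGE2B, PAGE5 and PAGE3 and in 22.8% of all promoters. The GC-box letters GGGCGG, also searched on both strands, occurred in PAGE2, PAGE2B and PAGE5 and in 45.0% of all promoters. The TATA letters TATAAA occurred in none of the 7 windows and in 11.5% of all promoters. These matches are descriptions of letters, not of bound sites. The GAGE1 window had 9 exact copies on the X chromosome, 7 of them within 1 kb of the start of another GAGE gene, so it does not belong to GAGE1 alone.

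**Figure D1:**
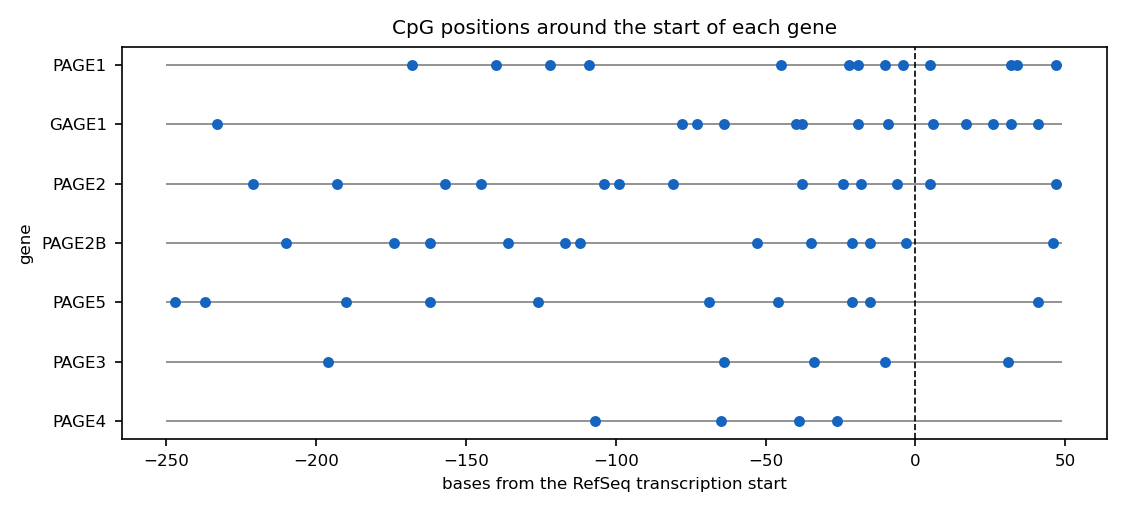
Each point is a CpG dinucleotide, placed by its distance in bases from the RefSeq transcription start (dashed line, 0), with 1 line per gene for the window from 250 bases before to 50 bases after the start. PAGE1, GAGE1, PAGE2, PAGE2B and PAGE5 carry 10 to 13 sites each, and PAGE3 and PAGE4 carry 5 and 4.

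Levels are given as FPKM (fragments per length of transcript and per mapped fragments of the library), as computed by the authors. CHD4 was at 28.4 ± 1.12 FPKM with siCHD4 plus siDNMT1 and 68.2 ± 5.19 with control siRNA plus siDNMT1, and at 31.3 ± 7.87 with siCHD4 and 62.8 ± 4.78 with control siRNA (mean ± SD, n = 3 each). With decitabine CHD4 was at 54.9 ± 2.06 FPKM with siCHD4 plus decitabine and 76.2 ± 8.17 with control siRNA plus decitabine (limma adjusted p = 0.0752, and 0.0449 without control siRNA plus decitabine replicate 0). DNMT1 was at 12.1 and 12.3 FPKM in the groups given siDNMT1 (with siCHD4 and with control siRNA) and between 42.5 and 51.7 in the other 4. An exact two-sided permutation test gave p = 0.1 for each of the 3 CHD4 differences, the smallest value that 3 against 3 allows. Of 10 colon epithelium markers, EPCAM (131 to 279 FPKM), KRT8 (329 to 1006) and KRT18 (267 to 1193) were high in every library. CDH1 (50.2 to 133 FPKM), CDX2 (31.1 to 71.0), KRT19 (9.04 to 49.4) and LGR5 (4.35 to 9.31) were lower. VIL1 (0.597 to 7.39 FPKM), KRT20 (0 to 4.19) and the intestinal factor CDX1 (at most 0.0417) were low or near 0. All 10 summed to 1060 to 1102 FPKM with siCHD4 plus siDNMT1, 1449 to 1509 with siCHD4 plus decitabine and 1206 to 1373 with siCHD4. With control siRNA the sums were 1805 to 1884 (siDNMT1), 1888 to 2463 (decitabine) and 2020 to 2132 (alone). These sums rest mostly on KRT8, KRT18 and EPCAM and do not give the direction of each marker. Of the 9 markers tested by limma (adjusted p below 0.05), 3 were higher and 2 lower with siCHD4 alone. On the siDNMT1 background 5 were higher and 2 lower, and on the decitabine background 1 and 2. Over all 12809 tested genes these counts were 1227 and 1244, 3175 and 3148, and 418 and 168. The spermatid genes PRM1, PRM2 and TNP1 were listed at 0 in every library, and the summed level of 6 male germ cell markers, of which DDX4, DAZL and ACRV1 were above 0 in some libraries, was 1.88 to 2.68 FPKM with siCHD4 plus siDNMT1, 2.48 to 2.55 with siCHD4 plus decitabine, 0.0505 to 0.602 with siCHD4, 1.06 to 1.55 with control siRNA plus siDNMT1, 1.18 to 1.94 with control siRNA plus decitabine and 0.153 to 0.592 with control siRNA. The summed level of 5 fibroblast markers was 12.7 to 14.8 FPKM with siCHD4 plus siDNMT1 and at most 6.85 FPKM in any library of the other 5 groups, with COL3A1 at 0 throughout. For 5 blood cell markers the sums were 4.85 to 5.63 FPKM and at most 2.92 FPKM in the same order. For 4 endothelial markers they were 0.399 to 0.529 FPKM and at most 0.242 FPKM. The part of these marker levels in the results was not tested.

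Depth is not listed. The step between low FPKM values, which is the worth of 1 fragment, was 4.12-fold that of control siRNA replicate 0 in control siRNA plus decitabine replicate 0, the shallowest library, and 0.639-fold to 1.66-fold in the others. Numbers of fragments behind the members were inferred from these steps: of 59 values under 60 steps for PAGE1, PAGE2, PAGE2B, PAGE4 and PAGE5, 53 (89.8%) lay within 0.05 of a whole number. For GAGE1 it was 4 of 12, so no fragments are given for GAGE1. Transcripts of PAGE1, PAGE3 and PAGE4 shared no stretch of 50 bases with those of another gene in the GENCODE annotation. PAGE2 shared 39.2% of its 50-base stretches, PAGE2B 49.1%, PAGE5 12.0% and GAGE1 12.9%, the last with 15 other genes, so reads of PAGE2 and PAGE2B, and of GAGE1 and its copies, could be split between genes in a way that is not given in the sources used here.

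PAGE1 (ENSG00000068985, GRCh37 chrX:49452050-49460587, minus strand) reached the highest levels of the family. It was at 76.4, 80.8 and 83.2 FPKM with siCHD4 plus siDNMT1, against 2.94, 3.73 and 5.26 FPKM with control siRNA plus siDNMT1. It was at 63.8, 55.7 and 69.7 FPKM with siCHD4 plus decitabine, against 17.6, 7.98 and 6.94 FPKM with control siRNA plus decitabine. Alone, siCHD4 gave 2.58, 2.23 and 6.75 FPKM, against 0, 0.254 and 0.237 FPKM with control siRNA. Both combination groups stood far above every other library, the control siRNA libraries stood below all others, and only siCHD4 alone and control siRNA plus siDNMT1 overlapped among neighbours in the order of group means. The 3 control siRNA libraries held 0, 1 and 1 inferred PAGE1 fragments, so its level there is close to the limit of detection. In bulk RNA, more cells that transcribe a gene and more RNA per cell cannot be told apart.

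PAGE4 (ENSG00000101951, chrX:49593863-49598867, plus strand), a stress-related protein best known from prostate, is 133.3 kb from PAGE1. It was at 4.87, 6.44 and 6.95 FPKM with siCHD4 plus siDNMT1, against 0.362, 0.398 and 0 FPKM with control siRNA plus siDNMT1. It was at 4.82, 2.28 and 3.27 FPKM with siCHD4 plus decitabine, against 1.57, 0 and 0.337 FPKM with control siRNA plus decitabine. It was at 0.243, 2.29 and 3.48 FPKM with siCHD4 alone and at 0 in all 3 control siRNA libraries. Of the 6 tested members PAGE4 had the lowest mean where siDNMT1 or decitabine was given without siCHD4: the 1.57 FPKM in the shallow decitabine library corresponds to 1 inferred fragment, and each of those 2 groups held 2 fragments in all. Only the group with siCHD4 plus siDNMT1 was separated from the next group in the order of means.

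PAGE2B (ENSG00000238269, chrX:55101463-55105342, plus strand) and PAGE2 (ENSG00000234068, chrX:55115451-55119275, plus strand) are related genes 10.1 kb apart. PAGE2B was at 26.4, 27.7 and 27.0 FPKM with siCHD4 plus siDNMT1, against 11.7, 11.4 and 9.46 FPKM with control siRNA plus siDNMT1. It was at 22.2, 19.9 and 24.1 FPKM with siCHD4 plus decitabine, against 16.4, 13.4 and 8.01 FPKM with control siRNA plus decitabine. With siCHD4 alone it was at 0.231, 0 and 0 FPKM, and it was at 0 in all 3 control siRNA libraries. PAGE2B was the member with the highest mean where siDNMT1 or decitabine was given without siCHD4, with 90 inferred fragments in the siDNMT1 group, 1 with siCHD4 alone and 0 with control siRNA. The 2 groups without siCHD4 overlapped each other.

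PAGE2 ran lower than its neighbour. It was at 4.74, 9.52 and 4.31 FPKM with siCHD4 plus siDNMT1, against 2.28, 1.25 and 1.20 FPKM with control siRNA plus siDNMT1. It was at 8.66, 7.88 and 7.71 FPKM with siCHD4 plus decitabine, against 4.92, 3.57 and 2.12 FPKM with control siRNA plus decitabine. It was at 0 in all 3 libraries with siCHD4 alone, against 0, 0 and 0.397 FPKM with control siRNA. The siCHD4 libraries lay above their controls within each treated background, but the groups overlapped along the order of means from siCHD4 plus decitabine down to control siRNA plus siDNMT1.

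PAGE5 (ENSG00000158639, chrX:55246779-55250541, plus strand), also known as CT16, lies 127.5 kb from PAGE2. It was at 16.7, 18.8 and 17.1 FPKM with siCHD4 plus siDNMT1, against 4.04, 2.73 and 2.96 FPKM with control siRNA plus siDNMT1. It was at 21.7, 21.1 and 27.1 FPKM with siCHD4 plus decitabine, against 5.37, 6.21 and 4.92 FPKM with control siRNA plus decitabine. It was at 0 in all 3 libraries with siCHD4 alone, against 0, 0 and 0.325 FPKM with control siRNA. Its 4 treated groups did not overlap with each other, and the decitabine combination was the higher one, the opposite order to PAGE1, PAGE2B and PAGE4.

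GAGE1 (ENSG00000205777, chrX:49363623-49373141, plus strand), a member of the tandem GAGE array and 78.9 kb from PAGE1, was low throughout. It was at 3.04, 2.69 and 3.27 FPKM with siCHD4 plus siDNMT1, against 1.65, 1.05 and 1.21 FPKM with control siRNA plus siDNMT1. It was at 4.56, 4.68 and 5.70 FPKM with siCHD4 plus decitabine, against 2.71, 2.20 and 2.13 FPKM with control siRNA plus decitabine. It was listed at 0 in all 6 libraries given siCHD4 or control siRNA alone. The siCHD4 plus siDNMT1 and control siRNA plus decitabine groups overlapped, and the siCHD4 plus decitabine group stood above all others. PAGE3 (ENSG00000204279, chrX:55284848-55291349, minus strand) was at 0.185 FPKM in siCHD4 plus decitabine replicate 2 and at 0 in the other 17 libraries, although its neighbour PAGE5 lies only 34.3 kb away.

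**Figure D2:**
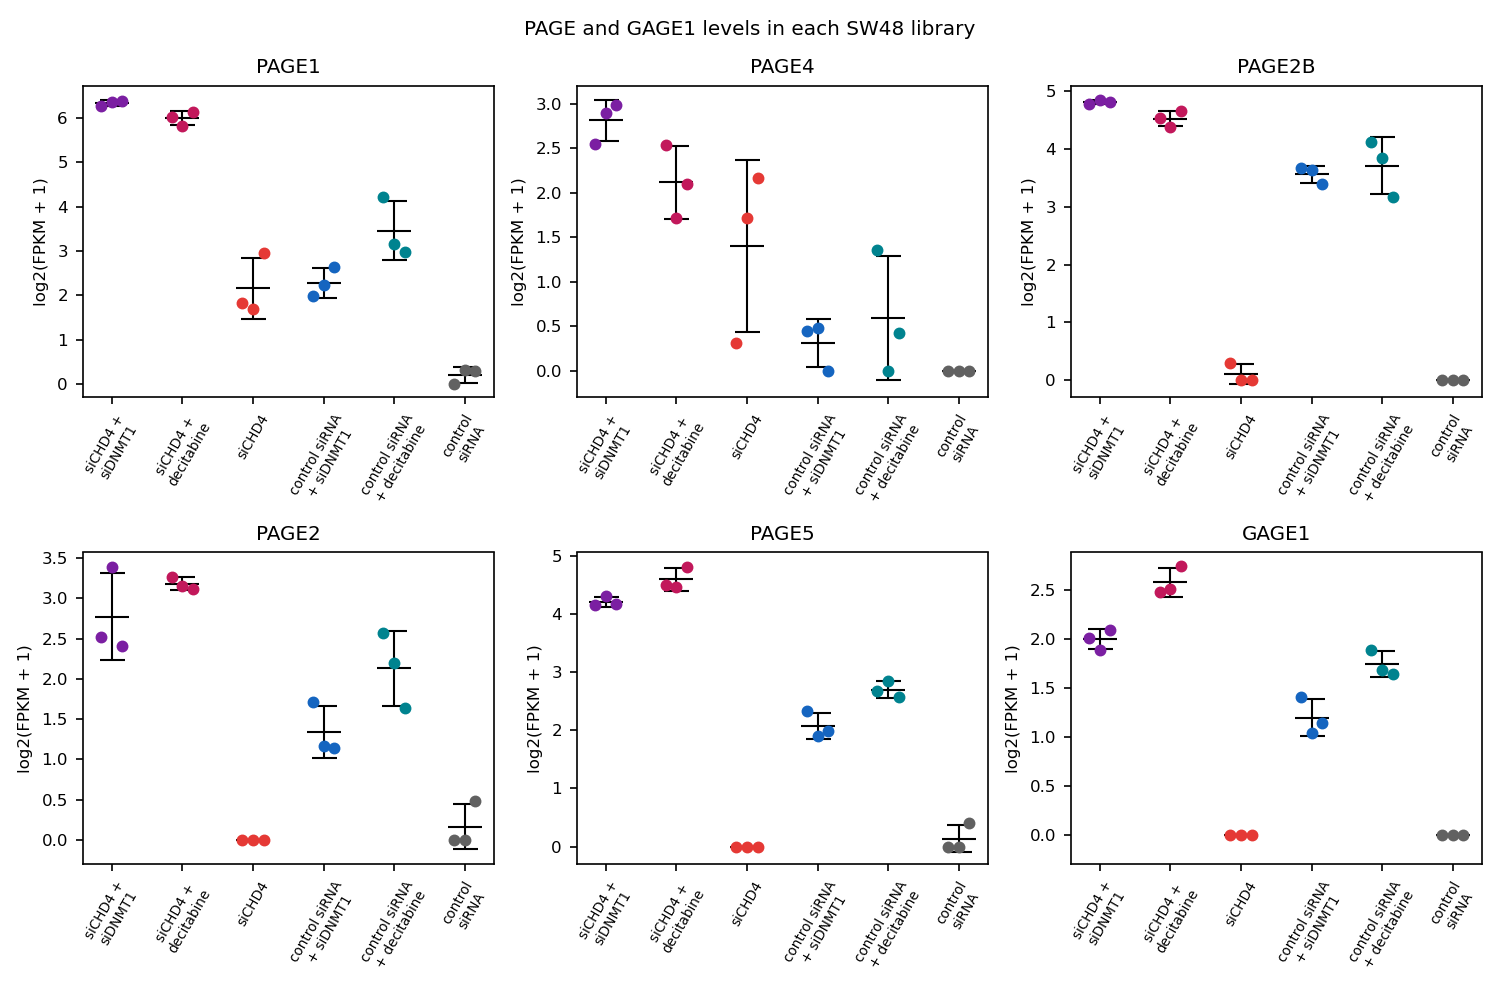
Each panel is 1 gene and each point 1 library, on a log2(FPKM + 1) axis whose range differs between panels, with the group mean and SD (n = 3) in black. All 6 genes have their highest mean in a group that combines siCHD4 with siDNMT1 or decitabine, and PAGE2, PAGE5 and GAGE1 are at 0 with siCHD4 alone, where PAGE1 and PAGE4 are not.

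Tests were made on log2(FPKM + 1), a scale that understates the change of low genes, and a gene is called at a limma adjusted p below 0.05. With siCHD4 alone PAGE1 and PAGE4 were called higher. PAGE1 was higher by 1.95 (SE 0.32, adjusted p = 0.000737) and PAGE4 by 1.40 (SE 0.39, adjusted p = 0.0223), each on the log2 scale, while PAGE2, PAGE2B and PAGE5 differed by -0.16, 0.10 and -0.14 (adjusted p of 0.701, 0.733 and 0.526) and GAGE1 was at 0 on both sides. These 2 calls of 6 members compare with 9.58% of all tested genes called higher and with 15.2% of the 527 other tested genes that had at most 0.397 FPKM in every control siRNA library. Such low genes, like the members, could pass the filter only through other groups. By inferred fragments PAGE1 was 59 against 2, a ratio per depth of 21.5 with a 95% interval of 5.68 to 181. Such intervals cover counting error only. The PAGE4 call was lost without siCHD4 replicate 1 (adjusted p = 0.0650), siCHD4 replicate 2 (0.0959), control siRNA replicate 0 (0.0611) or control siRNA replicate 1 (0.0619).

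Without siCHD4, PAGE2B, PAGE1, PAGE5, PAGE2 and GAGE1 were higher with siDNMT1 and with decitabine than with control siRNA alone, while PAGE4 did not pass the test. With control siRNA plus siDNMT1 against control siRNA, 5 of the 6 tested members were called higher, where 6.94% of all tested genes and 47.2% of the low genes were. The difference was 3.56 for PAGE2B (SE 0.17, adjusted p = 2.09e-09), 2.08 for PAGE1, 1.94 for PAGE5, 1.20 for GAGE1 and 1.18 for PAGE2 (adjusted p of at most 0.00665), and PAGE4 differed by 0.31 (adjusted p = 0.678). With control siRNA plus decitabine against control siRNA the same 5 genes were called, where 9.60% of all tested genes and 50.5% of the low genes were. The difference was 3.71 for PAGE2B (SE 0.17, adjusted p = 1.70e-09), 3.25 for PAGE1, 2.56 for PAGE5, 1.97 for PAGE2 and 1.74 for GAGE1 (adjusted p of at most 8.35e-05), and PAGE4 differed by 0.59 (adjusted p = 0.320). These 2 comparisons share the control siRNA libraries, and in each the schedule differs along with the treatment.

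On the siDNMT1 background all 6 tested members rose with siCHD4. PAGE1 was at 80.2 ± 3.44 FPKM with siCHD4 plus siDNMT1 and 3.98 ± 1.18 with control siRNA plus siDNMT1 (n = 3 each), a log2 difference of 4.05 (SE 0.32, adjusted p = 2.06e-07). PAGE4 rose by 2.50 (adjusted p = 0.000144), PAGE5 by 2.14 (adjusted p = 3.41e-08), PAGE2 by 1.43 (adjusted p = 0.000383), PAGE2B by 1.25 (adjusted p = 5.41e-05) and GAGE1 by 0.80 (adjusted p = 4.72e-05). As ratios of mean FPKM, PAGE1 and PAGE4 were 20.2-fold and 24.0-fold higher, whereas PAGE5 was 5.41-fold, PAGE2 3.92-fold, PAGE2B 2.50-fold and GAGE1 2.30-fold higher. The PAGE4 ratio rests on 2 inferred fragments with control siRNA plus siDNMT1 and has a counting interval of 6.07 to 199 around 23.3. In this comparison 24.8% of all tested genes and 74.2% of the low genes were called higher, so calls were common there.

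On the decitabine background all 6 tested members were called higher as well, against 3.26% of all tested genes and 35.9% of the low genes. PAGE1 was at 63.1 ± 6.99 FPKM with siCHD4 plus decitabine and 10.8 ± 5.87 with control siRNA plus decitabine, a log2 difference of 2.54 (SE 0.32, adjusted p = 0.000135). PAGE5 rose by 1.90 (SE 0.14, adjusted p = 8.64e-07) and GAGE1 by 0.84 (adjusted p = 0.000235). PAGE4 (1.52, adjusted p = 0.0382), PAGE2 (1.05, adjusted p = 0.0278) and PAGE2B (0.81, adjusted p = 0.0133) passed by less. The PAGE4 call was lost without siCHD4 plus decitabine replicate 0, 1 or 2, or control siRNA plus decitabine replicate 1 or 2 (adjusted p 0.0590 to 0.169), and with the replicate number as a block (adjusted p = 0.0656). The PAGE2 call was lost without the same 5 libraries (0.0597 to 0.109), and the PAGE2B call without siCHD4 plus decitabine replicate 0 (0.0555) or 2 (0.0586). The calls of PAGE1, PAGE5 and GAGE1 held with each library left out in turn.

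Read the other way, all 6 tested members were called higher with siCHD4 plus siDNMT1 than with siCHD4. In that comparison 16.6% of all tested genes and 85.2% of the low genes were called higher. PAGE2B rose by 4.71, PAGE5 by 4.21, PAGE1 by 4.18, PAGE2 by 2.77 and GAGE1 by 2.00 (adjusted p of at most 7.71e-07), and PAGE4 by 1.41 (adjusted p = 0.0118, and 0.0623 with a difference of 0.87 without siCHD4 replicate 0). With siCHD4 plus decitabine against siCHD4 5 were called higher, where 7.66% of all tested genes and 62.8% of the low genes were: PAGE5 by 4.59, PAGE2B by 4.42, PAGE1 by 3.83, PAGE2 by 3.18 and GAGE1 by 2.58 (adjusted p of at most 4.42e-07). PAGE4 differed by 0.72 (adjusted p = 0.261). CHD4 itself was 1.75-fold higher in this comparison, at 54.9 FPKM with siCHD4 plus decitabine and 31.3 FPKM with siCHD4 (adjusted p = 0.000788), so the groups were not equally depleted, and the part of this in the result was not tested. These 2 comparisons share the siCHD4 libraries, and here too the schedule differs along with the treatment.

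**Figure D3:**
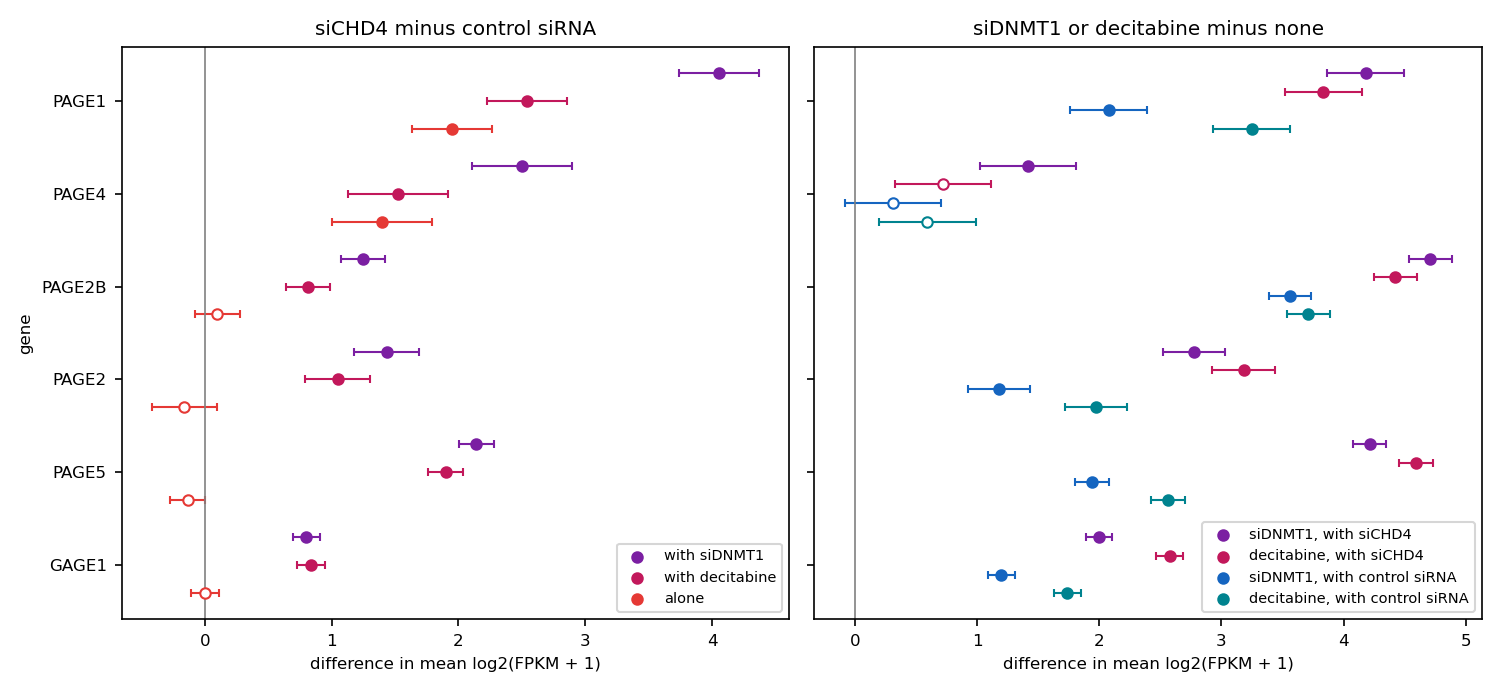
Points are differences in mean log2(FPKM + 1) with bars of 1 SE, filled where the limma adjusted p is below 0.05, for siCHD4 minus control siRNA in each background (left) and for siDNMT1 or decitabine minus none with each siRNA (right). With siCHD4 alone only PAGE1 (1.95) and PAGE4 (1.40) are filled, and PAGE4 has the smallest differences on the right.

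Whether the siCHD4 difference itself depended on the background was tested as a difference of differences. With siDNMT1 it was larger than alone for 5 of the 6 tested members, where 2.83% of all tested genes and 40.8% of the low genes were called higher. The excess was 2.27 for PAGE5 (SE 0.19, adjusted p = 4.10e-06), 2.10 for PAGE1 (SE 0.45, adjusted p = 0.0131), 1.59 for PAGE2 (adjusted p = 0.0205), 1.15 for PAGE2B (adjusted p = 0.0145) and 0.80 for GAGE1 (adjusted p = 0.00685). For PAGE4 it was 1.10, with a 95% interval of -0.08 to 2.29 (adjusted p = 0.292). The PAGE2 call was lost without control siRNA plus siDNMT1 replicate 1 (0.0590) or 2 (0.0552) or without control siRNA replicate 2 (0.0512).

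The PAGE1 result depended on the scale. With a pseudocount of 0.1 in place of 1 its excess was 0.40 (adjusted p = 0.792), and the ratio by inferred fragments was 20.1 (95% interval 15.1 to 27.3) for siCHD4 plus siDNMT1 against control siRNA plus siDNMT1 and 21.5 (5.68 to 181) for siCHD4 against control siRNA. As ratios, the siCHD4 effects on PAGE1 were thus not distinguishable between these backgrounds at this depth. PAGE2 (2.64, adjusted p = 0.0655) and PAGE2B (0.74, adjusted p = 0.445) also lost their calls at that pseudocount. PAGE5 and GAGE1 kept theirs, but for neither can the siCHD4 ratio alone be estimated. GAGE1 was listed at 0 in every library given siCHD4 or control siRNA alone. Its excess (0.80) is therefore its difference on the siDNMT1 background over again. PAGE5 was listed at 0 in all 3 libraries of siCHD4 alone and held 1 inferred fragment with control siRNA. These calls therefore cannot show whether the ratio differed between the backgrounds.

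With decitabine the siCHD4 difference was larger than alone for PAGE5 (2.03, SE 0.19, adjusted p = 7.98e-05) and GAGE1 (0.84, SE 0.16, adjusted p = 0.0149), where 0.773% of all tested genes and 10.8% of the low genes were called higher. For both, the siCHD4 ratio alone cannot be estimated from values at or near 0. PAGE2 (1.21, adjusted p = 0.143), PAGE2B (0.71, adjusted p = 0.198), PAGE1 (0.59, adjusted p = 0.556) and PAGE4 (0.12, adjusted p = 0.939) did not pass. The 95% intervals of the last 2 were -0.36 to 1.54 for PAGE1 and -1.06 to 1.31 for PAGE4. CHD4 itself was at 72.1% of its control with decitabine and at 49.9% with siCHD4 alone. The part of this in the result was not tested. Without control siRNA plus decitabine replicate 0, the shallow library, PAGE2B was called too (0.92, adjusted p = 0.0472). The GAGE1 call was lost at a pseudocount of 0.1 (1.06, adjusted p = 0.106) and with only the compared libraries (adjusted p = 0.0560), and with the 5 FPKM filter GAGE1 was not tested.

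On the linear scale the combined level was set beside the sum of the control siRNA level and the separate rises over it, as a description with no test. For PAGE1 the control siRNA level and the rises with siCHD4 alone and with siDNMT1 alone added to 7.66 FPKM. The level with both was 72.5 FPKM (SE 2.56) above that sum. With decitabine the sum was 14.5 FPKM and the excess 48.5 FPKM (SE 5.47). The excess was 14.4 FPKM (SE 0.773) with siDNMT1 and 17.9 FPKM (SE 1.95) with decitabine for PAGE5, and 16.1 FPKM (SE 0.786) and 9.42 FPKM (SE 2.72) in that order for PAGE2B. PAGE4 exceeded its sum by 3.83 FPKM (SE 1.14) with siDNMT1 but by 0.817 FPKM (SE 1.29), less than its error, with decitabine. GAGE1 and PAGE2 were above their sums by 1.70 to 4.74 FPKM. The schedules differ between the groups added here, so an effect of time cannot be told apart.

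The profiles of the members over the 18 libraries fell into more than 1 shape, given here as Pearson's r of log2(FPKM + 1) over libraries that share 6 group means. PAGE2, PAGE2B, PAGE5 and GAGE1 were alike, with r from 0.93 to 0.98 between pairs, although GAGE1 lies 5.87 Mb from PAGE5. PAGE1 had r of 0.84 to 0.91 with those 4. PAGE4 had r of 0.49 to 0.62 with those 4 and 0.84 with PAGE1. Among all other tested genes, the profile most like PAGE5 was that of ACP5, a lysosomal acid phosphatase (r = 0.987), followed by the cancer-testis gene MAGEA1 (0.986) and AFAP1-AS1 (0.982). The genes most like PAGE2 were ACP5 (0.973), PNMA5 (0.973) and MAGEA1 (0.971). PNMA5, a paraneoplastic antigen family gene, was also the most like GAGE1 (0.990), followed by KRT31 (0.977) and TNFRSF10C (0.976). For PAGE2B they were FSTL1 (0.994), PIWIL2 (0.990), the PIWI protein of the piRNA pathway, and DDIT4L (0.988). For PAGE1 they were NLRP1 (0.979), an inflammasome sensor, PLD3 (0.968) and PIK3CD (0.959), and for PAGE4 DES (0.953), the muscle filament desmin, HOGA1 (0.951) and SYTL1 (0.942).

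Most tested genes around the members were not called higher where the members were. The 3 nearest listed genes on each side of each member gave 14 genes outside the family set, of which 6 passed the filter and 0 were called with siCHD4 alone or on the decitabine background by limma. Over all 12809 tested genes, 1227 were called higher and 1244 lower with siCHD4 alone, and 418 and 168 on the decitabine background. With 6 genes, 0 calls do not set the neighbours apart from those shares. CLCN5, a chloride transporter gene next to the GAGE1 and PAGE1 locus, differed by -0.41 with siCHD4 alone (adjusted p = 0.129), and FAM104B, between PAGE2 and PAGE5, differed by -0.03 (adjusted p = 0.884). With siCHD4 plus siDNMT1 against control siRNA plus siDNMT1, 2 of the 6 neighbours were called higher and 3 lower. Of all 12809 tested genes 3175 were called higher there and 3148 lower. FAM104B fell by 0.77 (adjusted p = 0.000159) and APEX2, a DNA repair endonuclease on the other side of PAGE2B, fell by 0.45 (adjusted p = 0.0129), while PAGE2B, PAGE2 and PAGE5 around them rose. MTRNR2L10, also called lower there (-4.01, adjusted p = 0.0381), varied widely, at 36.1 ± 30.6 FPKM with control siRNA plus siDNMT1. USP27X, 45.2 kb from PAGE4, rose by 0.37 (adjusted p = 0.0242). MAGEH1, another X-linked MAGE gene 187.2 kb beyond PAGE3, did share much of the members' pattern. It was listed at 0 with siCHD4 and with control siRNA. It was higher by 0.85 with siCHD4 on the siDNMT1 background (adjusted p = 0.000332), by 0.63 with siDNMT1 (adjusted p = 0.0126) and 0.72 with decitabine (adjusted p = 0.00372) where control siRNA was given, and by 1.48 and 1.24 with siCHD4 plus siDNMT1 and siCHD4 plus decitabine against siCHD4 (adjusted p of 2.13e-06 and 3.21e-05).

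**Figure D4:**
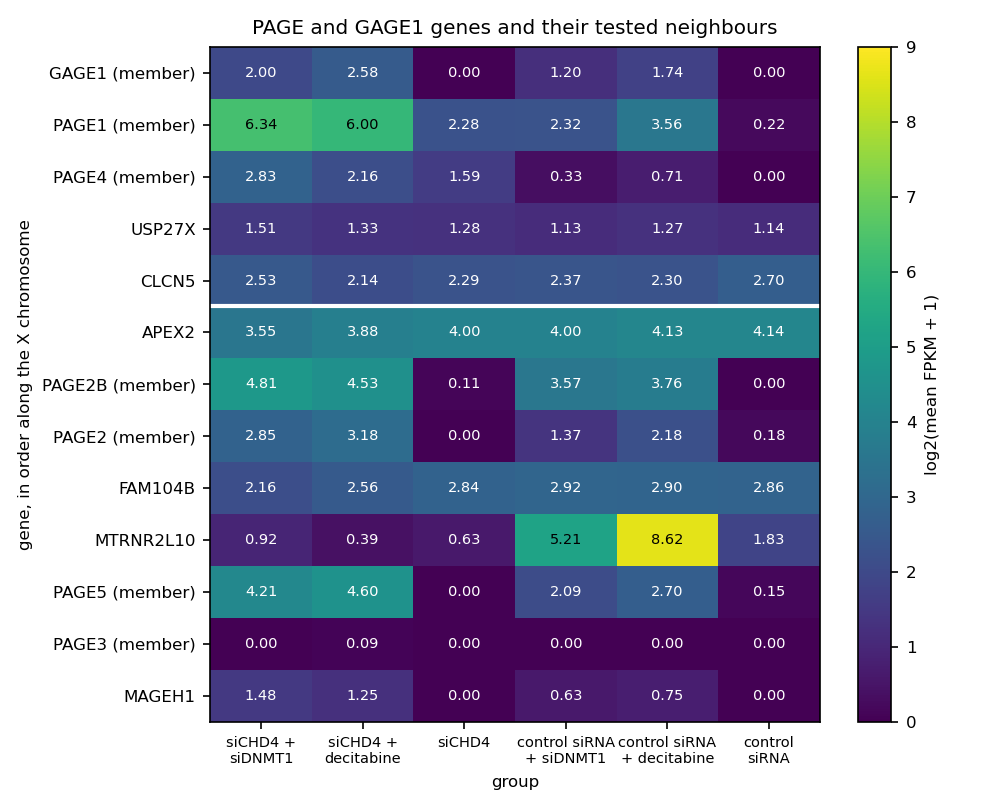
Colours and printed values are log2(mean FPKM + 1) per group for the 7 family genes (marked as members) and the 6 neighbours that were tested, in order along the X chromosome, with the white line between the GAGE1 locus and the PAGE2 and PAGE5 locus. The family genes other than PAGE3 brighten in the siCHD4 combinations while APEX2 and FAM104B, which lie beside PAGE2 and PAGE2B, do not.

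The listed values of the other GAGE and XAGE genes stayed near 0. Of 31 such relatives 28 were in the table, 20 of these were listed at 0 in every library, and 0 passed the filter. Counted as genes above 0 in at least 1 library, there were 5 with siCHD4 plus siDNMT1, 8 with siCHD4 plus decitabine, 0 with siCHD4, 3 with control siRNA plus siDNMT1, 1 with control siRNA plus decitabine and 1 with control siRNA. GAGE2E and GAGE8 enter these counts at values that are effectively 0. Each was at most 6.14e-05 FPKM with siCHD4 plus decitabine and 6.66e-05 with control siRNA plus siDNMT1. The highest relative was XAGE3, at 0.703 to 1.01 FPKM with siCHD4 plus decitabine. GAGE12J was at 0.365 to 0.735 FPKM there, and GAGE2B at up to 0.516 FPKM, so GAGE1 was the only GAGE gene looked at whose listed level passed the filter. GAGE1 shares 50-base stretches with 15 other genes, and how their reads were split is not known. The GAGE1 values may therefore hold reads of other copies, and these values cannot show that GAGE1 alone was transcribed.

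Other X-linked cancer-testis genes, such as the MAGE, SSX and VCX families, give the wider setting: 30 of 89 listed passed the filter. Those near 0 with control siRNA could pass it only through other groups. With siCHD4 alone 0 of the 30 were called by limma in either direction, where PAGE1 and PAGE4 were called, and their median log2 difference was about 0. The smallest p belonged to MAGEB6 (0.30, adjusted p = 0.106), at 0.262 FPKM with siCHD4 and 0.0207 with control siRNA. Next was SSX1 (0.45, adjusted p = 0.113), at 0.374 and 0 FPKM in that order. Such low levels give small differences on log2(FPKM + 1), and the PAGE4 call was itself lost without certain single libraries. Of all tested genes 9.58% were called higher there, and of the low genes 15.2%. On the siDNMT1 background 30 of 30 were called higher with siCHD4 (median log2 difference 1.74, against 1.79 for the 6 members and -0.01 over all tested genes). The share called higher there was 24.8% of all tested genes and 74.2% of the low genes. On the decitabine background 26 of 30 were called higher with siCHD4 (median 1.13, against 1.29 for the 6 members and 0.01 over all tested genes). The share there was 3.26% of all tested genes and 35.9% of the low genes. MAGEA4 was at 10.6 ± 1.64 FPKM with siCHD4 plus siDNMT1 and 0.384 ± 0.0842 with control siRNA plus siDNMT1. With control siRNA plus siDNMT1 against control siRNA, 7 of 30 were called higher, and with control siRNA plus decitabine 12 of 30, against 5 of 6 members in each. In these 2 comparisons 6.94% and 9.60% of all tested genes were called higher, and 47.2% and 50.5% of the low genes. Autosomal germline genes, of which 24 of 50 passed the filter, had 2 called higher with siCHD4 alone, 15 higher and 2 lower with siCHD4 on the siDNMT1 background, and 9 higher on the decitabine background. In that order, 9.58%, 24.8% and 3.26% of all tested genes were called higher, and 15.2%, 74.2% and 35.9% of the low genes. TEX19, the germ cell gene with the smallest p of that list, was at 57.6 ± 9.61 FPKM with siCHD4 and 0.316 ± 0.160 with control siRNA. No difference between these lists was tested.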

How the data were processed

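RNA was measured by stranded total-RNA sequencing after ribosomal RNA removal, per the labels' protocols, in 18 SW48 libraries; groups and replicate numbers come from the library titles. The deposited table holds the authors' FPKM, with a column for each library. Per the submitters' processing notes, the tools were TopHat2 2.0.9 and Cuffdiff 2.1.1 and the build hg19. The annotation, strand setting and scaling method were not given in the sources used here. Of 23599 entries, 28 have a date where the gene symbol should stand and were not used.

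From these values, log2(FPKM + 1) was fitted with 1 mean per group over all 18 libraries by limma 3.58.1 in R 4.3.3 (trend, 12 residual degrees of freedom). A gene was tested if 3 or more libraries reached 1 FPKM, with two-sided p-values under Benjamini-Hochberg adjustment over all 12809. The method was tested on simulated data with normal noise, for siCHD4 against control siRNA only. Effects were added to genes with a mean log2(FPKM + 1) above 1. Effects in genes with groups at or near 0, like the members, were therefore not covered, nor were differences of differences. Where the shallowest library, control siRNA plus decitabine replicate 0, enters a group, its values carry more counting error. Fragments were inferred from value steps, with exact 95% intervals from a conditional binomial.

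The genes, lists and tests were chosen with earlier results of these data known. Named genes are the members, CHD4, DNMT1, the 3 most similar profiles, the 3 nearest genes on each side and up to 3 genes of a list with the smallest p, and, chosen after their values were seen, relatives above 0. Promoters are from RefSeq. Alternatives tried were a replicate block, quantile normalization, median ratio scaling, a 5 FPKM filter, no filter, a 0.1 pseudocount, fitting only the compared groups, and leaving out each library.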

Additional observations from a re-analysis of the deposited data

Results flagged for a closer look

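On the log2(FPKM + 1) scale the siCHD4 difference depended on the background for 7 results, each tested as a difference of differences by limma. With siDNMT1, in place of no further treatment, the siCHD4 difference was larger by 2.27 for PAGE5 (adjusted p = 4.10e-06), 2.10 for PAGE1 (0.0131), 1.59 for PAGE2 (0.0205), 1.15 for PAGE2B (0.0145) and 0.80 for GAGE1 (0.00685). With decitabine it was larger by 2.03 for PAGE5 (adjusted p = 7.98e-05) and 0.84 for GAGE1 (0.0149). In each case the libraries with siCHD4 lay above those with control siRNA in the treated background in 3 of 3 libraries. These calls rest on that scale for PAGE1, PAGE2 and PAGE2B with siDNMT1 and for GAGE1 with decitabine, which were not called at a pseudocount of 0.1 (adjusted p of 0.792, 0.0655, 0.445 and 0.106). For PAGE5 and GAGE1 the siCHD4 difference alone rests on values at or near 0, so its ratio cannot be estimated. Schedule differs between backgrounds and cannot be told apart from them.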

How the results depend on the processing

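The number of members called higher with siCHD4 alone was 2, and 1 with a filter at 5 FPKM (PAGE4 is then not tested), 1 with only the compared libraries and 1 to 2 with a library left out. On the decitabine background it was 6, against 3 at a pseudocount of 0.1, 3 with only the compared libraries and 3 to 6 with a library left out. The called differences between siCHD4 effects numbered 5 with siDNMT1, against 2 at a pseudocount of 0.1 and 4 to 5 with a library left out. With decitabine they numbered 2, against 1 at a pseudocount of 0.1, 1 with the 5 FPKM filter, 1 with only the compared libraries and 2 to 3 with a library left out. Other than by the filter, the cause was not tested. The other member counts stayed within 1.5 times: leaving out a library gave 6 with siCHD4 on the siDNMT1 background, 5 for siDNMT1 and 5 for decitabine, each with control siRNA, against control siRNA, 5 to 6 for siCHD4 plus siDNMT1 against siCHD4 and 5 for siCHD4 plus decitabine against siCHD4. The decitabine difference of differences turned negative for PAGE1 at a pseudocount of 0.1 (-1.29) and for PAGE4 (-0.81), and PAGE4 ranged from -0.42 to 0.51 with a library left out, none of them called. Over all genes, leaving out a library or changing the fit moved calls most for siCHD4 alone (2471, against 514 with only the compared libraries), siCHD4 on the decitabine background (586, against 147 with only the compared libraries) and the siDNMT1 difference of differences (528, against 2557 at most with a library left out). Replicate numbers did not pair the libraries: residuals of same-numbered libraries correlated at -0.31 to 0.126, and 2 of 18 correlated best with their own number. With the replicate number as a block, PAGE4 on the decitabine background lost its call (adjusted p = 0.0656) and 0 other member calls changed. Depth limits folds against control siRNA, where 0 to 2 fragments per group were inferred for PAGE1, PAGE2, PAGE2B, PAGE4 and PAGE5, and against siCHD4 for PAGE2, PAGE2B and PAGE5 (0 to 1).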
